A study of Mus musculus with 10 samples.

Results

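The genes described here are nuclear effectors and target genes of the Wnt pathway: the DNA-binding factors Lef1, Tcf7, Tcf7l1 and Tcf7l2, their partner beta-catenin (Ctnnb1), and the target genes Axin2, Sp5, Nkd1 and Cdx1. The members were chosen by gene symbol, and a gene's value was read from every probe set that carries only that symbol in the platform annotation. Of the 9 genes, 8 have such a probe set, with 19 probe sets in all, among 18193 genes and 45037 tested probe sets. The expression of Tcf7 was not analysed here. The list was drawn up with results of these arrays known, and the values that led to it are not recorded. The counts and adjusted p-values below therefore place each gene within a fit over all probe sets and are no independent evidence about the list.

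Canonical Wnt signalling starts when a secreted Wnt ligand binds Frizzled and LRP receptors, which stops a cytoplasmic destruction complex from degrading beta-catenin. Beta-catenin then enters the nucleus and joins a TCF/LEF factor on DNA, and target genes such as Axin2 are switched on. In mouse embryonic stem cells (ESCs) the pathway favours self-renewal, and Tcf7l1 is known as the factor of this family that mainly represses, holding back pluripotency genes.

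Expression was measured on 10 Affymetrix arrays in the ESC line CJ9, which derives from strain 129SvJ and was adapted to growth on gelatin. All cells were infected with lentivirus for 48 h with polybrene at 10 µg/mL, then placed in ESC medium that held LIF and puromycin at 4 µg/mL and cultured for 48 h. The 5 groups had 2 arrays each: Empty Vector, without a hairpin, and 4 groups with a short-hairpin RNA (shRNA), of which Wapal shRNA1 and Wapal shRNA2 target the factor that releases cohesin from chromatin (Wapal, gene symbol Wapl) while Smc3 shRNA1 and Smc3 shRNA2 target a core subunit of the cohesin ring (Smc3). The comparisons asked which genes differed from Empty Vector after depletion of either factor, and whether the depletions differed from each other. The control carried no hairpin, so an effect shared by any hairpin cannot be told apart from an effect shared by these shRNAs. No label states whether the replicates, which are called biological, stem from separate infections, so the p-values measure the spread between these samples.

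The intensity of Wapl was 2500 and 2648 under Empty Vector, 929 and 1005 under Wapal shRNA1, and 235 and 217 under Wapal shRNA2. For Smc3 it was 1536 and 1555 under Empty Vector, against 176 to 223 under the Smc3 shRNAs. Both targets thus remained measurable after depletion, and Wapl was lowest with its shRNA2. The 8 listed markers of ESCs were all bright, with a median of their mean log2 intensity of 12.43, and 1 rose with Wapal depletion (Fgf4) while 2 fell with Smc3 depletion (Nanog and Zfp42). Probe sets with a mean log2 intensity under 6 are called dim here, since signal and background are hard to separate there, and 6 of 7 measured markers of primitive streak and mesoderm, 6 of 6 of endoderm and 4 of 5 of neural ectoderm were dim. None of these germ layer markers passed the test in either depletion. Of the 8 fibroblast markers, which feeder cells would bring, 7 were dim, and their summed intensity was 295 to 328 under Empty Vector, 236 to 268 with the Wapal shRNAs and 232 to 261 with the Smc3 shRNAs. Their calls ran in opposite directions: Thy1, the 1 that was not dim, fell in both depletions (-0.65 with Wapal and -0.92 with Smc3), while Dcn rose in both (0.48 and 0.52) and Pdgfra rose with Smc3 depletion (0.51). The 6 markers of trophectoderm, 5 of them dim, summed to 327 to 481 with Empty Vector, 257 to 338 with the Wapal shRNAs and 180 to 329 with the Smc3 shRNAs. Of these 6, only Tfap2c was called, which fell with Smc3 depletion and had intensities from 48.5 to 332 over the 10 arrays. The part of such cells in the results below was not tested. An earlier analysis of these arrays also described a split into sides of 5 that cross the groups. Empty Vector replicate 1, Wapal shRNA1 and Smc3 shRNA2 lie on one side and the rest on the other. Of 45037 tested probe sets, 123 were separated by more than 0.3 in log2 between the sides, and 0 of these belonged to the 8 genes. With so few separated, this 0 says nothing about the side in these genes. The rule also asks that every array of one side lies above every array of the other. A gene that differs among the groups within a side can miss it, whatever the part of the side.

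The promoters of Lef1, the member that rose in both depletions, and of Axin2 and Sp5, which are widely used as readouts of the pathway, are shown because TCF/LEF factors recognise a short motif in such regions. Both spellings CTTTGAA and CTTTGAT were searched on both strands, in windows from 250 bases before to 50 bases after each start site listed by RefSeq (GRCm38.p6). Capitals mark a match.
Lef1 promoter, chr3:131110047-131110346, plus strand: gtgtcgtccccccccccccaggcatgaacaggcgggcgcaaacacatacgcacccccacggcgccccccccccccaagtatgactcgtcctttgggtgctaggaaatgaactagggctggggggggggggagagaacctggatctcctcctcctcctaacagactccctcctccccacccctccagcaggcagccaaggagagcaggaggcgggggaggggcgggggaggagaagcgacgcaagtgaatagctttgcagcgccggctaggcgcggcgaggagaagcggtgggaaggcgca
Axin2 promoter, chr11:108920099-108920398, plus strand: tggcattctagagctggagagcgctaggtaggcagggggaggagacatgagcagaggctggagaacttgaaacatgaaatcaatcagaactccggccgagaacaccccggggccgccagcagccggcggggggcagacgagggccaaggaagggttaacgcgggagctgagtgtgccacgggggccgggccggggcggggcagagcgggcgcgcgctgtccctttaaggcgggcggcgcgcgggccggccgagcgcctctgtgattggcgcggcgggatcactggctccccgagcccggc
Sp5 promoter, chr2:70474673-70474972, plus strand: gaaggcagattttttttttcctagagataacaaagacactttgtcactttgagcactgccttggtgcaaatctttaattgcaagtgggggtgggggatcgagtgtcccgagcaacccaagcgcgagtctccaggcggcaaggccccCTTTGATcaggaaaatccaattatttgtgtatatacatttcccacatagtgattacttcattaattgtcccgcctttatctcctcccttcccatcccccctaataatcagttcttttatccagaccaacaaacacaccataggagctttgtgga
The windows numbered 14 and belong to 8 of the 9 listed genes, with Tcf7 among them and none for Cdx1. Of these windows 1 held a match, the one of Sp5, whose CTTTGAT begins 104 bases before the start site. Among all genes with a window, 9.88% held a match, and among all 32851 windows 8.65%. The windows of Lef1 and Axin2 held neither spelling, which says only that these letters are not in these windows. A match is a description of the letters and was not tied to binding by any measurement here.

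Among the TCF/LEF factors, Lef1 was higher in every depleted group, while Tcf7l2 was lower after Wapal depletion on its brightest probe set and Tcf7l1 was lower on 1 of its 2 probe sets. In Wapal-depleted cells 1 of the 8 genes rose and 1 fell at an adjusted p under 0.05, where 2.63% of all 18193 genes rose and 4.93% fell. In Smc3-depleted cells 1 of the 8 rose and 0 fell, against 6.08% and 3.94% of all genes, and 3 of the 8 had an unadjusted p under 0.05 in limma. With so few genes these counts are near those shares, so the description rests on the single genes. The median log2 fold change over the 8 genes was 0.05 with Wapal and 0.03 with Smc3 depletion, against 0.01 over all genes in each. The same 2 Empty Vector arrays serve both depletions. The Smc3 arrays are numbered in a block apart from the Empty Vector and Wapal arrays, and that block holds no Empty Vector array. Whether they were handled at another time is not stated. In comparisons that involve Smc3 depletion, a part of this block cannot be told apart from the depletion. In bulk RNA, fewer cells of a type and less RNA per cell cannot be told apart.

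Lef1 encodes a TCF/LEF factor that mostly activates with beta-catenin. Its brightest probe set (1454734_at) read 104 and 93.0 under Empty Vector, 166 and 204 under Wapal shRNA1, and 357 and 356 under Wapal shRNA2 in linear intensity. Under Smc3 shRNA1 it read 519 and 517, and under Smc3 shRNA2 498 and 522. No depleted array overlapped with Empty Vector, no Wapal shRNA1 array overlapped with Wapal shRNA2, and all 4 Smc3 arrays lay above all 4 Wapal arrays. Lef1 rose 2.61-fold in Wapal-depleted cells (log2 1.38 ± 0.11 SE, n = 4 against 2; limma with Benjamini-Hochberg adjustment, adjusted p = 0.00213). It rose 5.22-fold in Smc3-depleted cells (log2 2.38 ± 0.09 SE, n = 4 against 2; limma, adjusted p = 3.26e-05). By size of log2 fold change this was rank 9 from the top of 18193 genes with Wapal depletion and rank 5 with Smc3 depletion. Both calls held without any 1 array, with a largest adjusted p of 0.0201 for Wapal and 0.00105 for Smc3. Relative to the Empty Vector array on the same side, Lef1 lay at 0.82 with Wapal shRNA1, 1.94 with Wapal shRNA2, 2.29 with Smc3 shRNA2 and 2.48 under Smc3 shRNA1, and the Empty Vector arrays differed by -0.17 (replicate 2 minus replicate 1).

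The size of the Lef1 difference varied among the shRNAs. Against Empty Vector, Wapal shRNA1 gave a log2 fold change of 0.91 ± 0.13 (limma, adjusted p = 0.0125), and Wapal shRNA2 gave 1.86 ± 0.13 (adjusted p = 0.00127). Wapal shRNA1 left more Wapl and gave the lower Lef1 level, and whether these are linked was not tested. The difference between the shRNAs was -0.95 ± 0.13 (limma, adjusted p = 0.0254), where 1.02% of all genes were lower with shRNA1. This last call was lost without any 1 of the 4 Wapal arrays: the adjusted p was 0.170 and 0.151 without Wapal shRNA1 replicate 1 or 2, and 0.194 and 0.220 without Wapal shRNA2 replicate 1 or 2. The call for Wapal shRNA1 was lost without its replicate 1 (adjusted p = 0.0563) or its replicate 2 (adjusted p = 0.0999). The comparison of these shRNAs also runs along the side of the arrays, and the part of the side in it was not tested beyond the values within sides. Smc3 shRNA1 and Smc3 shRNA2 gave 2.39 ± 0.11 and 2.37 ± 0.11 (adjusted p = 4.75e-05 and 9.21e-05). Between them Lef1 differed by 0.02 ± 0.11 (adjusted p = 0.932), so the neighbouring highest groups did not differ beyond their spread. Set directly against each other, Wapal depletion lay below Smc3 depletion by a log2 difference of -1.00 ± 0.08 (n = 4 against 4; limma on all 10 arrays, adjusted p = 5.57e-05).

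The dimmer Lef1 probe set (1421299_a_at) moved in the same order. It had 10.4 and 13.6 under Empty Vector, 14.4 and 15.4 under Wapal shRNA1, 21.1 and 29.5 under Wapal shRNA2, 36.5 and 41.8 under Smc3 shRNA1, and 32.1 and 32.6 under Smc3 shRNA2. Its log2 fold change was 1.58 ± 0.12 with Smc3 depletion (limma, adjusted p = 0.000435) and 0.70 ± 0.16 with Wapal depletion (adjusted p = 0.0436). The latter call no longer passed when Empty Vector replicate 1 was left out (adjusted p = 0.188), nor did it without Wapal shRNA1 replicate 1 (0.0994) or 2 (0.126), or Wapal shRNA2 replicate 2 (0.0992). With 16 added to every intensity before log2, which damps dim probe sets, it was 0.35 with an adjusted p of 0.0827.

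**Figure D1:**
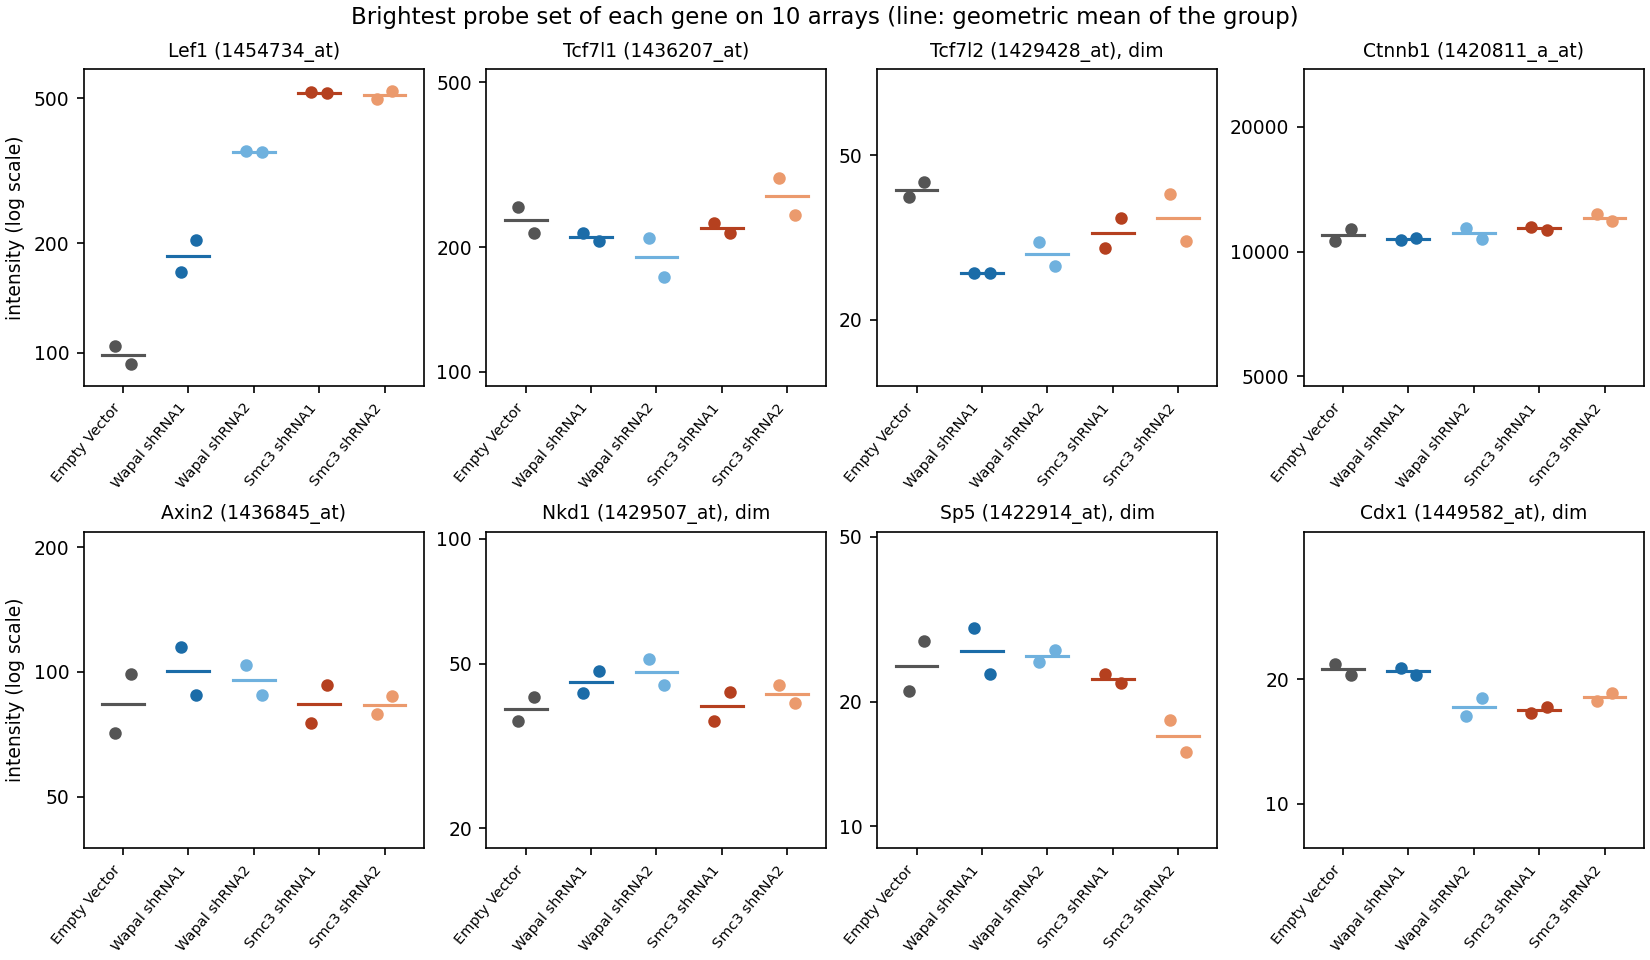
Intensity (log scale) of the brightest probe set of each of the 8 genes on the 10 arrays (points) by group. Lines mark group geometric means. Lef1 lies at 104 and 93.0 under Empty Vector and between 498 and 522 on the 4 Smc3 shRNA arrays, whereas Ctnnb1 stays between 10597 and 12299.6 on all arrays.

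Tcf7l1 was bright enough to measure on both of its probe sets, and they disagreed. The brightest (1436207_at) had 250.5 and 217 under Empty Vector, 217 and 207 under Wapal shRNA1, 211 and 169 under Wapal shRNA2, 228 and 216 under Smc3 shRNA1, and 293 and 239 under Smc3 shRNA2. The groups overlapped, with a log2 fold change of -0.22 ± 0.12 in Wapal-depleted cells (limma, adjusted p = 0.306; 95% confidence interval -0.49 to 0.05) and 0.06 ± 0.12 in Smc3-depleted cells (adjusted p = 0.836; -0.21 to 0.32). The other probe set (1450117_at) had 247 and 233 under Empty Vector, 99.97 and 127 under Wapal shRNA1, 186 and 147 under Wapal shRNA2, and 215 to 355 on the 4 Smc3 arrays. On this probe set all 4 Wapal arrays lay below both Empty Vector arrays, and so did replicate 2 of each Smc3 shRNA, at 222 and 215. It fell by 0.82 ± 0.14 in log2 with Wapal depletion (limma, adjusted p = 0.0172), with -1.09 ± 0.16 for shRNA1 (adjusted p = 0.0122) and -0.54 ± 0.16 for shRNA2 (adjusted p = 0.0945), and lay at 0.11 ± 0.18 with Smc3 depletion (adjusted p = 0.805). The call with Wapal depletion no longer passed when Empty Vector replicate 1 was left out (adjusted p = 0.0797), nor without Wapal shRNA1 replicate 1 (0.0549) or Wapal shRNA2 replicate 2 (0.0567). Wapal and Smc3 depletion differed by -0.92 ± 0.15 on this probe set (adjusted p = 0.00229) and by -0.28 ± 0.10 on the brightest (adjusted p = 0.0745). When both probe sets were averaged, Tcf7l1 lay at -0.52 with Wapal depletion with an adjusted p of 0.0469. Which transcripts each probe set reads was not analysed here.

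Tcf7l2 was dim on all 4 of its probe sets. On the brightest (1429428_at) the intensity was 39.6 and 43.0 under Empty Vector, 25.9 on both Wapal shRNA1 arrays, 30.8 and 26.9 under Wapal shRNA2, 29.8 and 35.3 under Smc3 shRNA1, and 40.3 and 31.0 under Smc3 shRNA2. All 4 Wapal arrays lay below Empty Vector, while 1 Smc3 array reached it. It fell by 0.59 ± 0.10 with Wapal depletion (limma, adjusted p = 0.0178), with -0.67 ± 0.11 and -0.52 ± 0.11 for the single shRNAs (adjusted p = 0.0213 and 0.0486), and lay at -0.29 ± 0.13 with Smc3 depletion (adjusted p = 0.255). The depletions differed by -0.31 ± 0.10, which did not pass (adjusted p = 0.0563). The call with Wapal depletion no longer passed when Empty Vector replicate 1 was left out (adjusted p = 0.0539), nor without its replicate 2 (0.0535), Wapal shRNA1 replicate 1 (0.0613) or 2 (0.0648), or Wapal shRNA2 replicate 2 (0.0651). The other 3 probe sets gave -0.08, 0.17 and -0.22 with Wapal depletion, none of which passed, and the mean of all 4 gave -0.18 (adjusted p = 0.212).

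**Figure D2:**
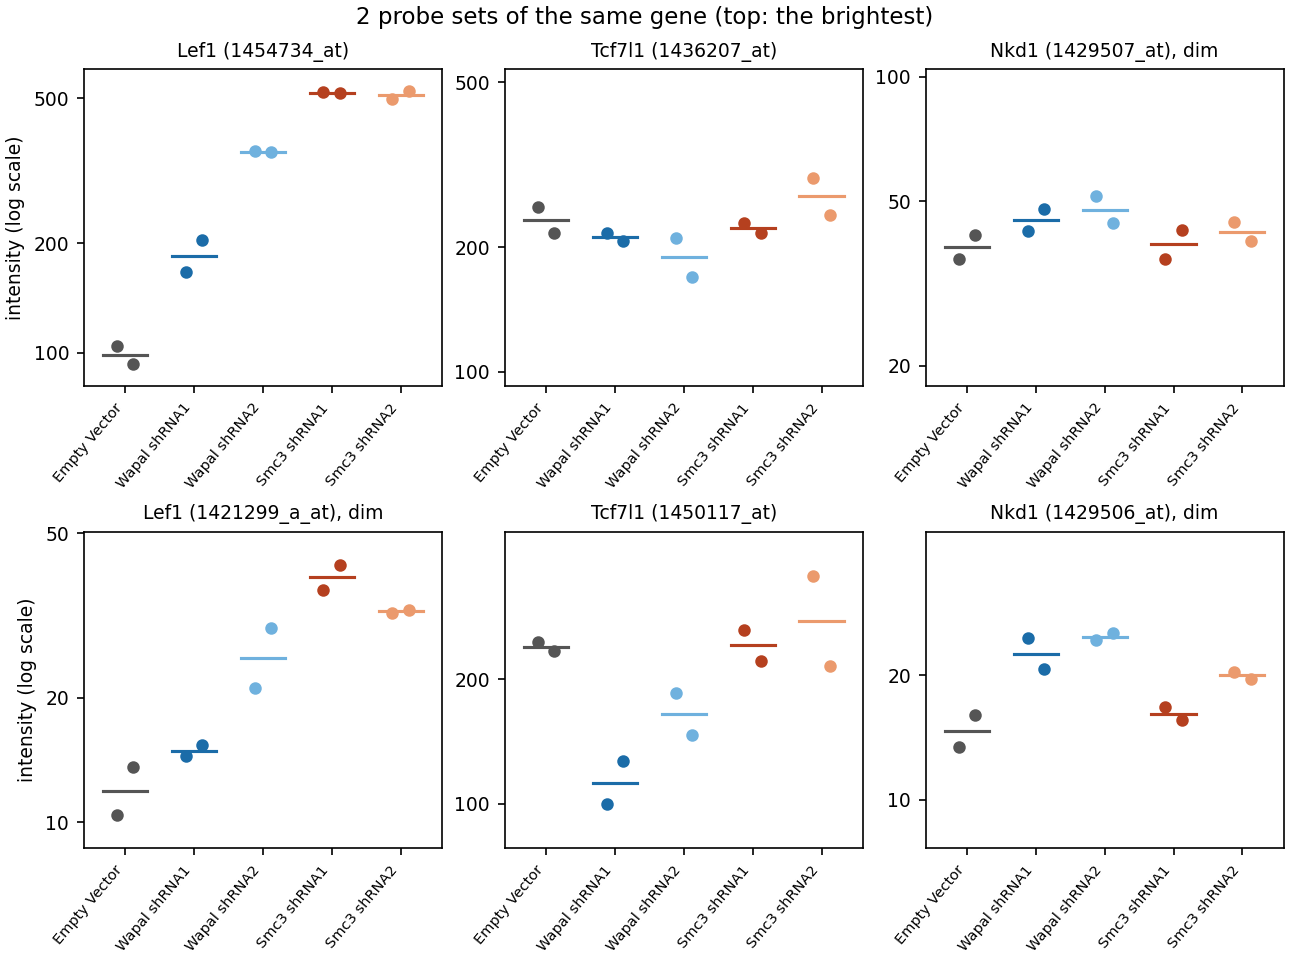
Intensity (log scale) on the 10 arrays (points) of 2 probe sets each for Lef1, Tcf7l1 and Nkd1, with lines at group geometric means and the brightest probe set on top. The Lef1 pair keeps the same order of Empty Vector, Wapal and Smc3 groups, whereas for Tcf7l1 and Nkd1 the probe set below moved with Wapal depletion (log2 -0.82 and 0.69) and the one above did not pass the test.

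Beta-catenin, which carries the signal to these factors, was the brightest of the 8 genes. Its brightest Ctnnb1 probe set (1420811_a_at) had 10597 and 11305 under Empty Vector, 10651 to 11421 on the Wapal arrays and 11268 to 12299.6 on the Smc3 arrays. These ranges overlapped. The log2 fold change was -0.01 ± 0.09 with Wapal depletion (limma, adjusted p = 0.976; 95% confidence interval -0.22 to 0.20) and 0.10 ± 0.09 with Smc3 depletion (adjusted p = 0.592; -0.10 to 0.30). The other 2 probe sets gave -0.14 and -0.06 with Wapal and -0.05 and -0.01 with Smc3 depletion, and none passed. The arrays measure RNA only, and the pathway acts on beta-catenin mainly through the stability of the protein.

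Of the target genes, none passed in either depletion on its brightest probe set. Axin2, a scaffold of the destruction complex that the pathway itself switches on, had 71.1 and 98.9 under Empty Vector, 115 and 88.2 under Wapal shRNA1, 104 and 87.8 under Wapal shRNA2, 75.5 and 93.2 under Smc3 shRNA1, and 79.0 and 87.7 under Smc3 shRNA2 (1436845_at). The Empty Vector arrays, which differed by 0.48 in log2, spanned the values of all 4 Smc3 arrays and of 2 Wapal arrays. Axin2 lay at 0.23 ± 0.16 with Wapal depletion (limma, adjusted p = 0.447; 95% confidence interval -0.15 to 0.60) and at -0.01 ± 0.15 with Smc3 depletion (adjusted p = 0.990; -0.35 to 0.34). Without Empty Vector replicate 1 or 2 the value with Wapal depletion was -0.01 or 0.46, and it did not pass in either case. The other Axin2 probe set was dim, at 7.74 to 9.55 on all arrays.

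Nkd1 encodes an inhibitor that binds Dishevelled and is itself a Wnt target. Its brightest probe set (1429507_at), which is dim, had 36.3 and 41.4 under Empty Vector, 42.5 and 47.9 under Wapal shRNA1, 51.4 and 44.3 under Wapal shRNA2, and 36.3 to 44.4 on the Smc3 arrays. All Wapal arrays lay above both Empty Vector arrays, by a log2 fold change of 0.26 ± 0.11 that did not pass (limma, adjusted p = 0.213). A dimmer probe set (1429506_at) had 13.5 and 16.1 under Empty Vector, 24.6 and 20.7 under Wapal shRNA1, 24.4 and 25.3 under Wapal shRNA2, 16.7 and 15.6 under Smc3 shRNA1, and 20.4 and 19.6 under Smc3 shRNA2. It rose by 0.69 ± 0.12 with Wapal depletion (adjusted p = 0.0181) and with both single shRNAs (0.62 and 0.76, adjusted p = 0.0408 and 0.0258), lay at 0.29 ± 0.10 with Smc3 depletion (adjusted p = 0.145), and differed between the depletions by 0.40 ± 0.09 (adjusted p = 0.00969). The call with Wapal depletion no longer passed when Empty Vector replicate 1 was left out (adjusted p = 0.0877), nor without Wapal shRNA1 replicate 1 (0.0598), or Wapal shRNA2 replicate 1 (0.0604) or 2 (0.0670). The remaining 2 probe sets gave -0.04 and 0.09 with Wapal depletion and did not pass.

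Sp5 encodes a zinc finger factor that is a direct Wnt target, and the Sp5 window printed above was the one with a match to the motif. It was dim, with 21.2 and 27.9 under Empty Vector, 30.1 and 23.3 under Wapal shRNA1, 24.9 and 26.7 under Wapal shRNA2, 23.3 and 22.2 under Smc3 shRNA1, and 18.0 and 15.1 under Smc3 shRNA2 (1422914_at). Only the Smc3 shRNA2 arrays lay below both Empty Vector arrays. Neither depletion passed against Empty Vector, at 0.10 ± 0.15 with Wapal (limma, adjusted p = 0.712) and -0.33 ± 0.13 with Smc3 (adjusted p = 0.191). Wapal depletion lay above Smc3 depletion by 0.43 ± 0.11 (adjusted p = 0.0232). That call was lost without Wapal shRNA1 replicate 1 (adjusted p = 0.0795), Wapal shRNA2 replicate 1 (0.0514) or 2 (0.0736), Smc3 shRNA1 replicate 1 (0.0576) or 2 (0.0693), or Smc3 shRNA2 replicate 2 (0.0850). In this direct comparison Sp5 was the 1 gene of the 8 that was higher with Wapal depletion and Lef1 the 1 that was lower, where 7.66% of all genes were higher and 14.8% lower.

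Cdx1, a homeobox gene of the posterior embryo that responds to Wnt signals, was dim as well, at 16.3 to 21.8 on all 10 arrays (1449582_at). It had 21.8 and 20.4 under Empty Vector, 21.3 and 20.5 under Wapal shRNA1, 16.3 and 18.1 under Wapal shRNA2, 16.6 and 17.1 under Smc3 shRNA1, and 17.7 and 18.5 under Smc3 shRNA2. Wapal shRNA1 overlapped with Empty Vector and the other groups lay below it. The log2 fold changes of -0.16 ± 0.10 with Wapal and -0.27 ± 0.09 with Smc3 depletion did not pass (limma, adjusted p = 0.360 and 0.112).

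**Figure D3:**
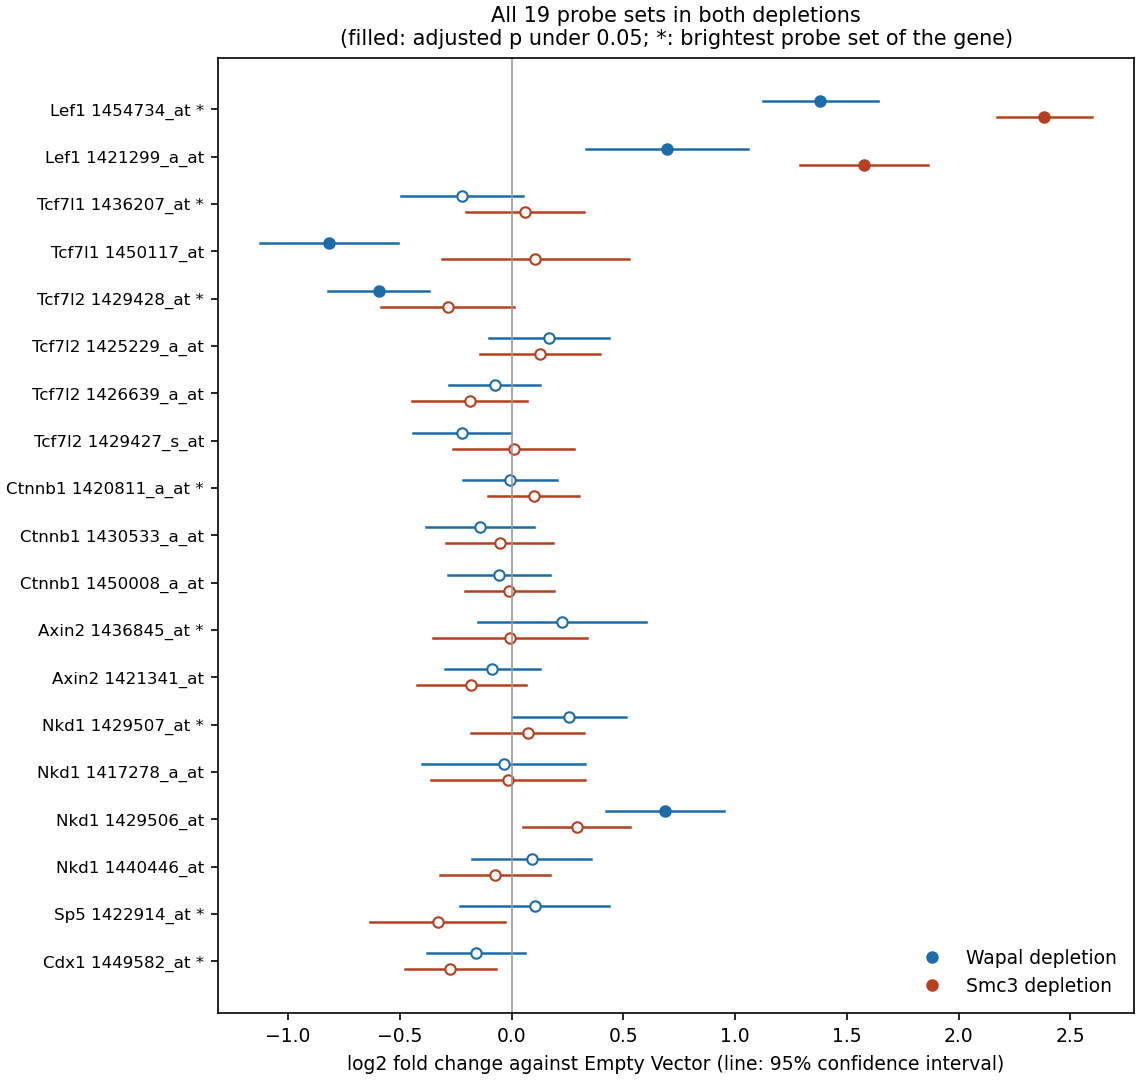
Log2 fold change against Empty Vector (x axis, with its 95% confidence interval as a line) of the 19 probe sets of the 8 genes (y axis) for Wapal and Smc3 depletion; filled points passed at an adjusted p under 0.05 and an asterisk marks the brightest probe set of a gene. Both Lef1 probe sets stand to the right in both depletions (0.70 to 2.38), and the other calls, all with Wapal depletion, lie between -0.82 and 0.69.

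Over all 19 probe sets, 3 rose and 2 fell with Wapal depletion, 2 rose with Smc3 depletion, and 2 were higher and 3 lower in Wapal than in Smc3 depletion. The shares of all probe sets called in these comparisons were 5.91%, 7.62% and 17.4%. The 12 dim probe sets include 3 of the 5 calls with Wapal depletion.

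Over all 10 arrays, the genes whose log2 intensity was most like that of Lef1 were Klf7 (Pearson's r = 0.98), Gadd45g (r = 0.98) and Pgm2l1 (r = 0.97), out of 9689 genes with a mean log2 intensity of 6 or more. Their log2 fold changes were smaller, at 0.33, 0.66 and 0.29 with Wapal depletion and 0.61, 1.24 and 0.70 with Smc3 depletion. For Tcf7l1 these genes were Nexmif (r = 0.94), Cox8a (0.92) and Mapre1 (0.92), and for Axin2 they were Csnk1a1 (0.88), Ly6g6c (0.84) and Clic4 (0.81). The genes like Tcf7l1 lay at -0.42, -0.05 and -0.19 with Wapal and -0.00, 0.05 and -0.01 with Smc3 depletion. Those like Axin2 lay at 0.01, 0.16 and 0.21 with Wapal and -0.02, -0.03 and 0.04 with Smc3 depletion. The group means of Axin2 spanned 0.28 in log2, less than the 0.48 between its Empty Vector arrays. The highest of so many correlations over 10 arrays can be large without shared regulation. The arrays share groups and controls, so these values describe likeness over these 10 arrays and carry no test.

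Of 126 other genes of the pathway, listed from textbook knowledge in 8 groups by their role, 124 were measured and 51 of these were dim. With Wapal depletion 3 rose and 14 fell, and with Smc3 depletion 14 rose and 12 fell, by the brightest probe set of each gene and the same adjusted p over all probe sets. These counts stand against 2.63% higher and 4.93% lower of all genes with Wapal depletion, and 6.08% and 3.94% with Smc3 depletion. Between the depletions 12 were higher and 26 lower with Wapal, against 7.66% and 14.8% of all genes. Of these calls, 3 of 17 with Wapal depletion (Wls, Myc and Dll1), 15 of 26 with Smc3 depletion and 22 of 38 between the depletions held without each array in turn. Among the Smc3 calls that did not hold were those of Wnt8a, Lgr4, Fzd8, Kremen1, Tle4, Tle6 and Klf2. The median log2 fold change over the 124 genes was 0.00 and 0.01 with Wapal and Smc3 depletion, against 0.01 and 0.01 over all genes. The counts by list below stand against the same shares of all genes, and with so few genes a list they describe single genes.

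Among the 19 Wnt ligands, 16 of them dim, 0 passed with Wapal depletion, and Wnt8a alone rose with Smc3 depletion, by 0.42 ± 0.10 from a dim level (limma, adjusted p = 0.0346). Among the 6 genes of ligand secretion and R-spondins, 1 rose and 1 fell in each depletion. Wls, which carries Wnt proteins to the cell surface, lay at 82.4 and 91.0 under Empty Vector, between 135 and 183 on the Wapal arrays and between 176 and 299.6 on the Smc3 arrays. It rose in both depletions, by 0.89 ± 0.10 (adjusted p = 0.00615) and 1.42 ± 0.09 (adjusted p = 0.000198). Porcn, the enzyme that attaches the lipid Wnt proteins need, fell in both, by 0.50 ± 0.10 (adjusted p = 0.0317) and 0.81 ± 0.10 (adjusted p = 0.00270). It lay at 237 and 218 under Empty Vector, 130 and 141 under Wapal shRNA1, 181 and 203 under Wapal shRNA2, and 111 to 156 on the Smc3 arrays. Its call with Wapal depletion no longer passed with the side of the arrays in the model or after quantile normalization (limma, adjusted p = 0.0707 and 0.0724).

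Of the 20 receptors, 2 fell with Wapal depletion (Ror2 and Fzd5), while 4 rose (among them Lgr4, Fzd8 and Fzd7) and 1 fell (Ror2) with Smc3 depletion. Fzd8 was dim, and its call no longer passed with the side of the arrays in the model (limma, adjusted p = 0.0878). Ror2, a receptor for Wnt ligands that act without beta-catenin, lay at 125 and 139 under Empty Vector, 81.2 to 90.4 on the Wapal arrays and 53.7 to 61.0 on the Smc3 arrays. These 3 ranges did not overlap, with log2 fold changes of -0.61 ± 0.10 and -1.19 ± 0.10 (limma, adjusted p = 0.0168 and 0.000489). Of 14 inhibitors that are secreted or sit at the cell surface, Sfrp4 and Notum fell in both depletions (-0.51 and -0.57 with Wapal, -0.64 and -0.69 with Smc3). Sfrp1 fell with Smc3 depletion alone in these tests (-0.86), and 2 rose there, among them the cell-surface protein Kremen1 (0.45). Sfrp1 was higher with Wapal than with Smc3 depletion by 1.03 ± 0.08 (adjusted p = 4.71e-05).

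None of the 20 genes of Dishevelled and the destruction complex passed against Empty Vector in either depletion. Between the depletions 2 were higher and 5 lower with Wapal, where 7.66% of all genes were higher and 14.8% lower. The tankyrases, which mark Axin proteins for degradation, were among the lower ones, Tnks by a log2 difference of -0.56 ± 0.08 (limma, adjusted p = 0.00126) and Tnks2 by -0.43 ± 0.07 (adjusted p = 0.00194). Tnks lay at 273 and 282 under Wapal shRNA1 and at 542 and 496 under Wapal shRNA2, the latter within the Empty Vector arrays at 446 and 548. Of 21 beta-catenin cofactors and TCF corepressors, 4 fell with Wapal depletion: Crebbp (-0.60), Pygo2 (-0.53), Tle4 (-0.51) and Cdk8 (-0.48). Cdk8 differed mainly under Wapal shRNA1, with 844 and 695 against 1413 and 1433 under Empty Vector and 1371 and 1362 under Wapal shRNA2. With Smc3 depletion Tle4, a corepressor that binds TCF/LEF factors, fell by 0.58 and Tle6 rose by 0.38. Crebbp, a histone acetyltransferase, was lower with Wapal than with Smc3 depletion by a log2 difference of -0.75 ± 0.08 (limma, adjusted p = 0.000246).

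Further genes known as Wnt targets in some tissues moved in both directions. Of 18 measured, 2 rose and 2 fell with Wapal depletion, and 5 rose and 2 fell with Smc3 depletion. Myc lay at 274 and 214 under Empty Vector, 79.4 to 109 on the Wapal arrays and 54.2 to 138 on the Smc3 arrays, and it fell by 1.43 ± 0.15 and 1.48 ± 0.13 (limma, adjusted p = 0.00503 and 0.000700). Ccnd1, a cyclin of the G1 phase, fell in both, with -0.43 for Wapal and -1.66 for Smc3 depletion, and the difference between the depletions was 1.23 ± 0.07 (limma, adjusted p = 6.26e-06). It had 917 and 936 under Empty Vector, 556 and 592 under Wapal shRNA1, and 836 and 810 under Wapal shRNA2. The Ccnd1 call with Wapal depletion no longer passed with the side of the arrays in the model or after quantile normalization (limma, adjusted p = 0.0653 and 0.0749). Dll1, a Notch ligand, rose by 0.95 and 1.07. Fgf4 rose by 0.50 with Wapal depletion, but its arrays under Wapal shRNA1 (2051 and 2175) lay within Empty Vector (1703 and 2212) and those under Wapal shRNA2 above it (3619 and 3536). Id2, an inhibitor of basic helix-loop-helix factors, was among the genes that rose with Smc3 depletion (1.11). Its size differed between the shRNAs, with 424 and 294 under Smc3 shRNA1 and 141 and 172 under Smc3 shRNA2, against 110 and 106 under Empty Vector.

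Genes known to be repressed by Tcf7l1 in ESCs moved one way where they passed. Of 6 genes, Esrrb (-0.66), Tfcp2l1 (-0.62) and Klf2 (-0.48) fell with Wapal depletion, and with Smc3 depletion Tfcp2l1 (-0.95), Esrrb (-0.77), Nanog (-0.71) and Klf2 (-0.51) fell. Empty Vector replicate 2 lay above replicate 1 by 0.31 for Esrrb, 0.34 for Tfcp2l1, 0.28 for Klf2 and 0.11 for Nanog in log2. Klf2 had 1091 and 1036 under Wapal shRNA1 and 2041 and 2011 under Wapal shRNA2, the latter within the Empty Vector arrays at 1857 and 2260. Its call with Wapal depletion no longer passed with the side of the arrays in the model or after quantile normalization (limma, adjusted p = 0.0723 and 0.0629). Nanog lay at 6366 and 6874 under Empty Vector, 5588 to 8016 on the Wapal arrays and 3384 to 4770 on the Smc3 arrays, so that it was below Empty Vector on every Smc3 array. The level of Tcf7l1 itself is given above, and its part in these changes was not tested.

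**Figure D4:**
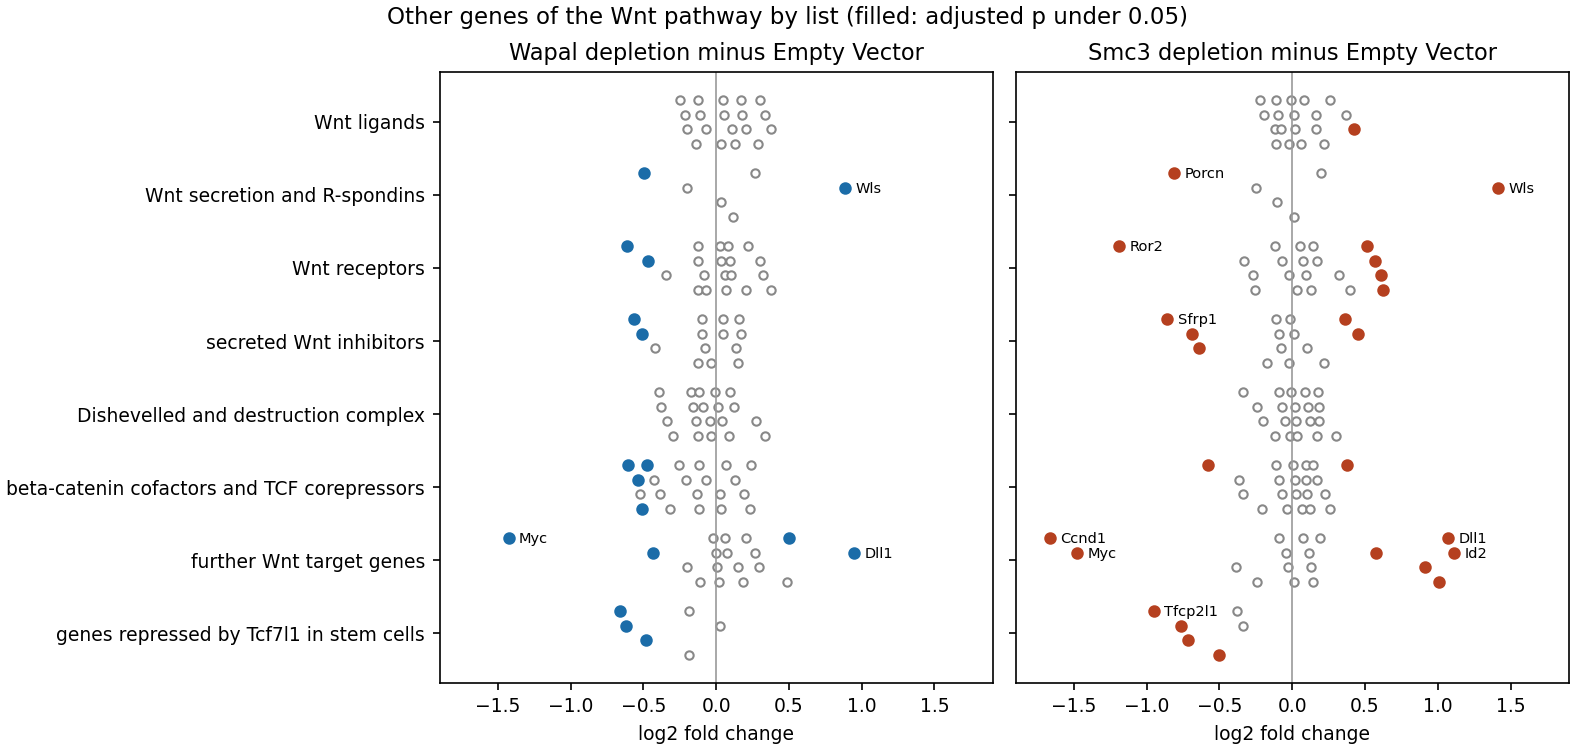
Log2 fold change against Empty Vector (x axis) of the 124 other Wnt pathway genes by list (y axis) for Wapal depletion (left) and Smc3 depletion (right); filled points passed at an adjusted p under 0.05 and of the 4 largest calls of a list those beyond 0.8 in either direction are named. No gene of Dishevelled and the destruction complex is filled, and Wls (0.89 and 1.42) and Dll1 (0.95 and 1.07) stand to the right in both. The list labelled secreted Wnt inhibitors also holds inhibitors at the cell surface.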

How the data were processed

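The authors deposited linear intensity values, 1 for each probe set, made from the array scans with RMA, which corrects background, sets the arrays to one distribution and summarises each probe set. The RMA version is not given in the sources used here. RMA compresses differences among dim probe sets, and a shift of most genes the same way could not be seen. Of 45101 probe sets, 64 controls were left out. After log2, limma 3.58.1 (R 4.3.3) was run with Benjamini-Hochberg adjustment over 45037 probe sets and a threshold of 0.05. Each depletion was the mean of both shRNA groups minus Empty Vector, fitted on 6 arrays, and depletions were compared on all 10. Errors are standard errors from the spread within groups, without the difference between the shRNAs of a target. The fit was tested on simulated data. Groups follow the labels, although a supplement to the study swaps replicate 2 of Wapal shRNA1 with replicate 1 of Wapal shRNA2. With the labels used, Wapl read 929 and 1005 under Wapal shRNA1 and 235 and 217 under Wapal shRNA2. The swap would put 929 with 235 and 1005 with 217.

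The brightest probe set of a gene, by its mean over 10 arrays, gives its value. The text names every member, in each other list up to 4 called genes a comparison by size of change, and the 3 genes most like each of the 3 members with the widest range of group means among those that are not dim. The members and lists were chosen with earlier results of these data known. Alternatives covered the model, an offset of 16, quantile normalization, a filter on dim probe sets, array weights, a replicate block, the side of the arrays, other rules for several probe sets and each array left out. Promoters came from RefSeq windows of GRCm38.p6, and protein identity among TCF/LEF factors was not analysed here.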

Additional observations from a re-analysis of the deposited data

Results flagged for a closer look

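Among the 8 genes, Lef1 had the largest difference between the depletions on the brightest probe sets: a log2 difference of -1.00 for Wapal minus Smc3 depletion passed in its own test over all 10 arrays. Lef1 also differed between the Wapal shRNAs, by -0.95 for shRNA1 minus shRNA2, and that comparison runs along the side of the arrays. Sp5 differed between the depletions by 0.43 although neither depletion passed against Empty Vector. Groups of 2 arrays are too small for a test of single outlying arrays.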

How the results depend on the processing

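The precision is set by 2 arrays a group, and 12 of the 19 probe sets of the 8 genes are dim. Lef1 kept its direction and its call under all 15 alternatives in each depletion (log2 1.04 to 1.46 with Wapal, 1.98 to 2.47 with Smc3) and under all 19 in the direct comparison (-1.08 to -0.91). With Wapal depletion the 2 genes called became 1 with dim probe sets left out, since Tcf7l2 was not tested there, 4 with any probe set counted, and 1 to 2 without single arrays. With Smc3 depletion 1 gene was called throughout. In the direct comparison the 2 genes called became 4 with a trended and robust eBayes, 4 with any probe set counted, and 1 to 2 without single arrays. Of the other Wnt pathway genes, the 17 called with Wapal depletion became 27 with all 10 arrays in 1 model, 10 with quantile normalization and 3 to 9 without single arrays, and the 26 called with Smc3 depletion became 17 to 23 without single arrays. Same-numbered replicates did not deviate together (correlations of -0.16 to 0.06), so no shared shift by replicate number was seen. These correlations cannot tell whether arrays with the same number stem from one infection. With the replicate number as a block, 2, 1 and 3 of the 8 genes were called in the Wapal, Smc3 and direct comparisons, and 13 and 22 of the other pathway genes with Wapal and Smc3 depletion. Tcf7l2, Sp5, Nkd1 and Cdx1 gave no value with dim probe sets left out. Among the other pathway genes, Fgf4, Porcn, Ccnd1, Klf2, Cdk8 and Fzd5 were among the Wapal calls lost without single arrays, with adjusted p values up to 0.200, 0.130, 0.106, 0.129, 0.124 and 0.0979.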
